A study of Mus musculus with 6 samples.

Results

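The genes H2-Aa, H2-Ab1, H2-Eb1, Cd74, Ciita, H2-DMa and H2-DMb1 encode the class II antigen presentation machinery of the mouse. They were chosen by name, and all 7 were found among the 54838 genes of the count table. Enough counts for a test were present for 6 of the 7, among 11092 genes tested in all, and Ciita was too low to test. RNA was sequenced from the transcript ends of sorted I1DN leukemic cells of 6 mice, 3 that received vehicle and 3 that received AG636, an inhibitor of the pyrimidine synthesis enzyme DHODH. I1DN is a murine acute myeloid leukemia (AML) derived from fetal liver stem and progenitor cells that had been transduced with 3 mutant genes. All 6 samples, the vehicle controls included, had a C57BL/6 background and carried IDH1 R132H, DNMT3A R882H and Nras G12D. AG636 was given by oral gavage b.i.d. at 100 mg/kg. The durations of treatment named in the sources differ. The cells had been transplanted into sub-lethally irradiated Ptprca recipients, which differ from the leukemia in their form of CD45 and keep blood cells of their own. The study describes transplanting stored cells of a moribund animal, so the 6 mice may carry leukemias of 1 origin. Cells came from bone marrow and spleen, and the sorted population is given as cKit+CD11b- in one place and as cKit-high CD11b-low in another. Mice are named below by group and replicate number.

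Totals lay between 4634963 and 7906589 counts per mouse, so that 3 counts correspond to 0.392 to 0.637 CPM, the unit of expression used below, in which counts are scaled to a common library size. Transcripts of the immature markers Kit (31.8 to 46.3 CPM), Cd34 (88.3 to 208 CPM) and Myb (397 to 552 CPM) were present in every mouse. Of the 8 immature markers listed, 1 had at most 3 counts in each mouse. Itgam, which encodes CD11b, was at 12.1 to 27.0 CPM in vehicle mice and at 31.3 to 60.1 CPM in AG636 mice.

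Class II molecules are pairs of an alpha and a beta chain that carry peptides from endosomes to the cell surface, where CD4 T cells read them. In the mouse, H2-Aa and H2-Ab1 encode the chains of I-A, and H2-Eb1 encodes the beta chain of I-E, whose alpha chain is not made in C57BL/6 mice. The invariant chain, encoded by Cd74, guides new class II molecules to the endosome and fills their groove. H2-DM, made from H2-DMa with H2-DMb1 or H2-DMb2, then exchanges the remnant of that chain for a peptide, and H2-DO, made from H2-Oa and H2-Ob, restrains H2-DM. Ciita is the coactivator that switches these genes on. It does not bind DNA itself and is held at their promoters by factors on the X box, among them RFX, and by NF-Y on the Y box. Dendritic cells, macrophages and B cells are the main cells that use this machinery, and some myeloid progenitors and leukemias carry it too.

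The promoter sequences below are shown because members of the family share this X and Y box layout while their transcript levels, given further on, differed in pattern between mice. They are from the RefSeq promoter table of build GRCm38.p6, which had entries for 4 of the 7 members, H2-Aa, H2-Eb1, H2-DMa and H2-DMb1. H2-Ab1, Cd74 and Ciita had no entry used here. Capitals mark GNAAC, the letters taken for a part of the X box, and TGATTGG, the letters taken for the Y box.
H2-Aa, chr17:34287867-34287909, minus strand: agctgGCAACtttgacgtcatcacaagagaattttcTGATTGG
H2-Eb1, chr17:34305771-34305812, plus strand: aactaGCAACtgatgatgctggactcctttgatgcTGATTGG
H2-Oa, chr17:34092298-34092340, plus strand: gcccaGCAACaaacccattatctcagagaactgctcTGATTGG
H2-Ob, chr17:34238813-34238852, plus strand: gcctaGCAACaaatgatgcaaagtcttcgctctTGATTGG

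Both motifs were chosen with these sequences in view and were searched on both strands in the 250 bases before each start. The pair with 15 to 35 bases between them was present in 0.484% of 32851 RefSeq promoters, GNAAC alone in 79.6% and TGATTGG alone in 7.23%. The motifs do not overlap in the pair. The spacing was 26 bases in H2-Aa, 25 in H2-Eb1, 26 in H2-Oa and 23 in H2-Ob. The pair also lay before the starts of H2-DMb1, with 26 bases between the motifs, and H2-Eb2, with 25. H2-DMb2 held only TGATTGG, and the entries of H2-DMa, which lie some kilobases from its annotated start, held no match. A match describes these letters and no binding was measured.

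None of the 6 members tested passed the threshold between AG636 and vehicle, an adjusted p under 0.05 (quasi-likelihood test of edgeR, Benjamini-Hochberg adjustment), in either direction. Across all genes tested 21.3% passed it, 10.3% higher and 11.0% lower. At an unadjusted p under 0.05 the count of members was also 0, and DESeq2 and limma-voom called 0 as well. All 6 log2 fold changes were above 0, with a median of 1.07 against 0.03 over all genes tested, but AG636 mouse 2 set this sign and limma-voom gave a median of 0.36. In that mouse all 7 members were at their highest level of the 6 mice, whereas it was the highest of the 6 for 18.3% of all genes tested. Without it, 5 of the 6 log2 fold changes were below 0, their median was -0.59, and again 0 were called beside 19.8% of all genes tested. The groups overlapped for all 7 members, while 41.1% of the genes tested did not overlap. In sorted bulk cells, fewer cells of a kind and less RNA per cell cannot be told apart.

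**Figure D1:**
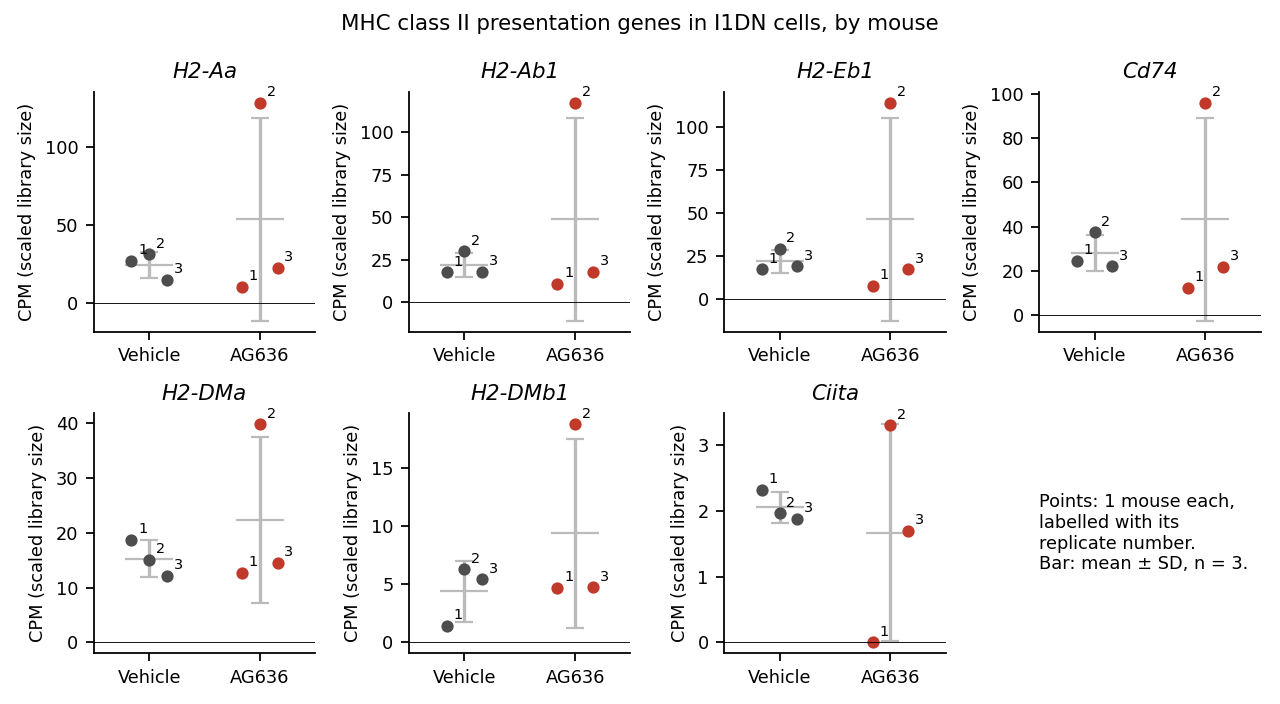
Level in CPM of each of the 7 class II genes by mouse, with 1 point per mouse labelled with its replicate number and a bar for the mean ± SD of 3 mice. AG636 mouse 2 is the highest point in every panel, at 128 CPM for H2-Aa, and the other AG636 mice lie within or below the range of the vehicle points in every panel.

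The chains of I-A and I-E came first. H2-Aa (ENSMUSG00000036594, mm10 chr17:34282744-34287827, minus strand), the alpha chain of I-A, was at 26.7, 31.1 and 14.8 CPM in vehicle mice 1 to 3 and at 10.2, 128 and 22.3 CPM in AG636 mice 1 to 3. AG636 mouse 2 was thus 4.11 times as high as the next mouse, AG636 mouse 1 was the lowest of the 6, and AG636 mouse 3 lay within the vehicle range. The means were 24.2 ± 8.43 CPM with vehicle and 53.5 ± 64.8 CPM with AG636 (SD, n = 3 each). Its log2 fold change was 1.13 ± 0.71 (SE), with a 95% interval from -0.46 to 2.72 and its adjusted p was 0.282 (quasi-likelihood test of edgeR, Benjamini-Hochberg adjustment), as for all adjusted p below.

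H2-Ab1 (ENSMUSG00000073421, chr17:34263209-34269418, plus strand), the beta chain that pairs with it, was at 17.7, 30.1 and 18.0 CPM with vehicle and at 11.0, 118 and 17.9 CPM with AG636. As for H2-Aa, AG636 mouse 2 was at the top, AG636 mouse 1 was at the bottom and AG636 mouse 3 lay within the vehicle range. Its log2 fold change was 1.14 ± 0.70, with an interval from -0.42 to 2.70 and an adjusted p of 0.267. H2-Eb1 (ENSMUSG00000060586, chr17:34305877-34316199, plus strand), the beta chain of I-E, was at 17.3, 29.3 and 19.0 CPM with vehicle and at 7.65, 114 and 17.2 CPM with AG636. The same mice were highest and lowest, and AG636 mouse 1 was at 0.350 of the vehicle mean. Its log2 fold change was 1.07 ± 0.74, with an interval from -0.59 to 2.73 and an adjusted p of 0.326. The alpha chain of I-E, annotated as the pseudogene H2-Ea-ps, had 0 counts in all 6 mice, and the further beta chain gene H2-Eb2 had 1 count in all.

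Cd74 (ENSMUSG00000024610, on chromosome 18), the invariant chain, was at 24.6, 37.4 and 22.1 CPM in vehicle mice and at 12.3, 96.1 and 21.7 CPM in AG636 mice. AG636 mouse 2 stood 2.57 times above the next mouse, and AG636 mouse 1 was again the lowest. The log2 fold change was 0.62 ± 0.59, with an interval from -0.70 to 1.94 and an adjusted p of 0.483. The counts of H2-Aa, H2-Ab1 and H2-Eb1 together, divided by those of Cd74, gave a ratio between 2.34 and 2.64 in the other 5 mice and of 3.74 in AG636 mouse 2. Chains and invariant chain therefore kept nearly the same proportion in those 5 mice although their levels ranged widely, and AG636 mouse 2 had more chain transcript per Cd74 transcript. The size of this ratio also depends on how well each transcript end is captured, and with 1 such mouse it was not tested.

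H2-DMa (ENSMUSG00000037649, chr17:34135182-34139101, plus strand), the alpha chain of the peptide editor H2-DM, was at 18.7, 15 and 12.1 CPM with vehicle and at 12.7, 39.8 and 14.5 CPM with AG636. AG636 mouse 2 was 2.13 times as high as the next mouse, and both other AG636 mice lay within the vehicle range. The log2 fold change was 0.54 ± 0.40, with an interval from -0.34 to 1.42 and an adjusted p of 0.348. H2-DMb1 (ENSMUSG00000079547, chr17:34153072-34160230, plus strand), which encodes a beta chain of H2-DM, was at 1.43, 6.28 and 5.43 CPM with vehicle and at 4.67, 18.8 and 4.72 CPM with AG636. Here vehicle mouse 1 was the lowest. The log2 fold change was 1.08 ± 0.62, with an interval from -0.29 to 2.45 and an adjusted p of 0.234. Of the 50-base words in the last 500 bases of its transcripts, 20.4% also occur in H2-DMb2, so counts of these neighbors may be split between them, whereas the other members shared 0%. H2-DMb2 itself had between 1 and 16 counts per mouse and a log2 fold change of 0.88 ± 0.67 (adjusted p = 0.375).

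Ciita (ENSMUSG00000022504, chr16:10480059-10528418, plus strand) had 13, 15 and 9 counts in vehicle mice and 0, 16 and 9 in AG636 mice, 37 against 25 in all. The mouse with 0 counts was AG636 mouse 1, in which the class II chains were also lowest, and its count allows a level of up to 0.637 CPM. The highest level, 3.30 CPM, was in AG636 mouse 2, and the next was 2.32 CPM in vehicle mouse 1. The groups overlapped, and the exact permutation test (two-sided, 3 against 3, smallest possible p 0.1) gave p = 0.7. Its exons overlap those of Dexi on the opposite strand, which had 895 counts over the 6 mice, and the sources used here do not say whether counting used strand. Ciita passed the filter in 4 of the fits without 1 mouse, where its log2 fold change lay between -0.36 and 0.27 and was not called. At these counts a difference in the coactivator was not detectable.

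The remaining members gave p values between 0.6 and 1.0 in the exact permutation test of their CPM. The spread between mice of a group was wide: the SD of log2 CPM within groups was larger for H2-DMa than for 95.3% of the genes tested and for H2-Eb1 than for 99.9%. Summed over the 7 members, the level was 109, 151 and 93.4 CPM in vehicle mice and 58.6, 518 and 100.0 CPM in AG636 mice. AG636 mouse 2 gave 76.5% of the sum of its group. The members share these 6 samples, so their like fold changes are not independent of each other.

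Leaving out AG636 mouse 2 turned the sign of 5 members, in the fit of the other 5 mice. The log2 fold changes were then -0.58 for H2-Aa, -0.60 for H2-Ab1, -0.82 for H2-Eb1, -0.73 for Cd74 and -0.17 for H2-DMa, and 0.08 for H2-DMb1. Of these, 2 had an unadjusted p under 0.05, and the lowest adjusted p was 0.111, for Cd74. Leaving out any other mouse kept the 6 values above 0 and called 0 members. The filter on low counts also mattered. With no filter, 5 members were called higher, H2-Aa with an adjusted p of 8.38e-07, beside 7.19% of the 21371 genes then tested. In that fit edgeR drew the spread of all genes to 1 common trend, and the spread it used for H2-Aa was 0.788 instead of 10.5.

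**Figure D2:**
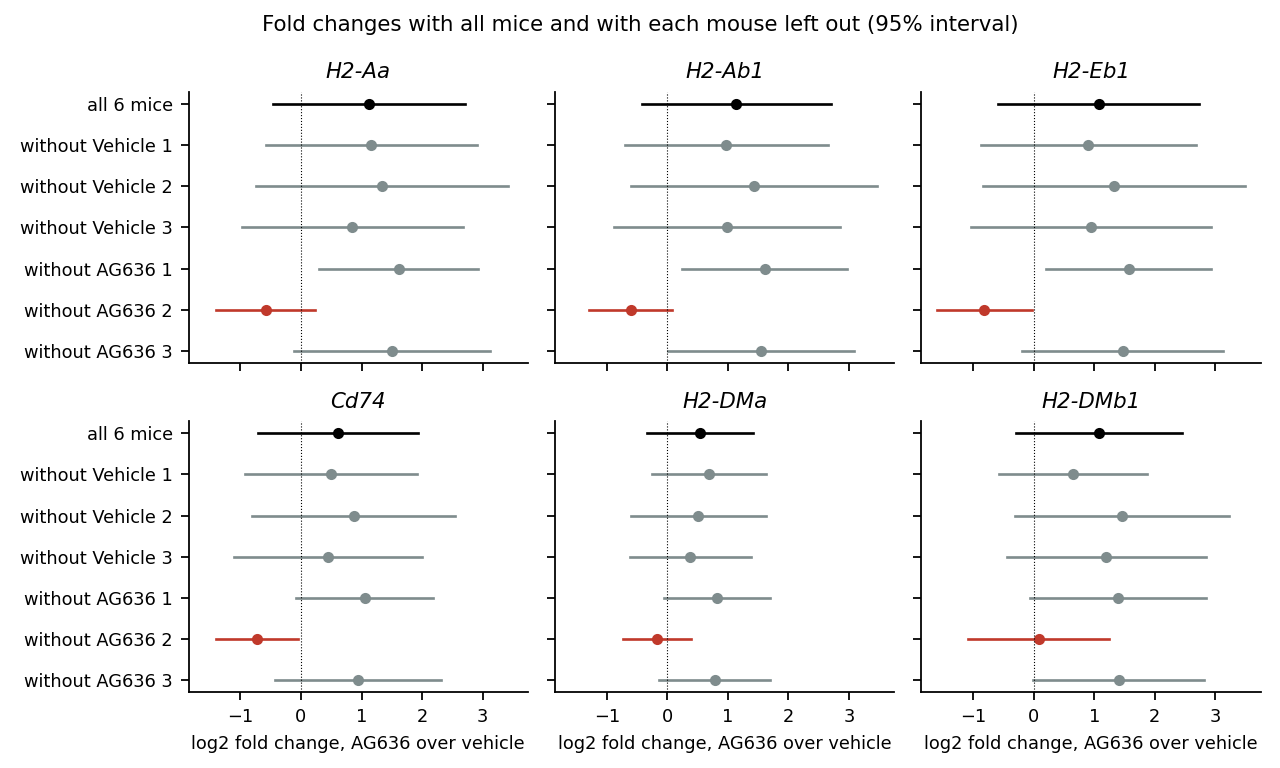
Log2 fold change, AG636 over vehicle, of the 6 tested members with all 6 mice (black) and with each mouse left out in turn, with 95% intervals from edgeR's quasi-likelihood fit. The fit without AG636 mouse 2 (red) moves to -0.58 for H2-Aa and -0.82 for H2-Eb1, and the other fits stay above 0.

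By a rule fixed for naming genes, the genes most like H2-Aa, the member with the most counts, were sought by the root mean square difference of log2 CPM after centering each gene on its mean over the 6 mice. The nearest 5 of all genes tested were H2-Ab1 (0.279), H2-Eb1 (0.305), Tmem158 (0.307), Cd74 (0.316) and Serpina3f (0.392). H2-DMa came at rank 16 and H2-DMb1 at rank 349. H2-DMb2, H2-Oa and H2-Ob came at ranks 6825, 10245 and 10822. The I-A and I-E chains and Cd74 thus followed 1 pattern over the mice, H2-DMa followed it less closely, and the H2-DO genes were among the least alike. These likenesses rest on 6 points, of which AG636 mouse 2 is the farthest out.

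**Figure D3:**
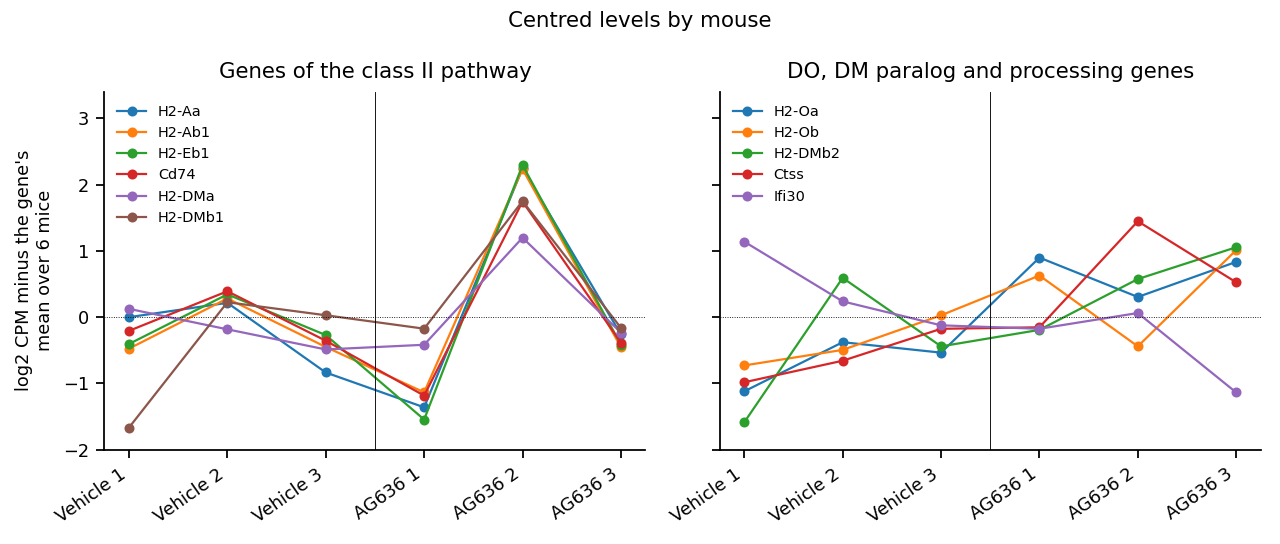
Log2 CPM minus the gene's mean over the 6 mice, for the tested members (left) and for H2-Oa, H2-Ob, H2-DMb2, Ctss and Ifi30 (right), with lines only joining the points of 1 gene. The members peak in AG636 mouse 2, at 2.23 for H2-Ab1, while H2-Oa and H2-Ob are higher in AG636 mice 1 and 3 than in AG636 mouse 2.

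The genes of H2-DO followed another pattern over the mice. H2-Oa, its alpha chain, was at 3.92, 6.80 and 6.06 CPM with vehicle and at 17.0, 11.1 and 16.2 CPM with AG636. All AG636 mice lay above all vehicle mice, and AG636 mouse 2 was the lowest of its group. H2-Oa rose with a log2 fold change of 1.39 ± 0.28 and an adjusted p of 0.0109, and it passed the threshold in all 13 alternative fits. H2-Ob, the beta chain, was at 5.17, 6.15 and 8.99 CPM with vehicle and at 13.8, 6.39 and 18.1 CPM with AG636. Its groups overlapped through AG636 mouse 2, and its log2 fold change of 0.93 ± 0.37 had an adjusted p of 0.0999. H2-Ob was called higher without AG636 mouse 2 (1.25, adjusted p = 0.0187) and with no filter (0.0180). H2-Oa was the gene called among the 3 of 5 further class II genes with enough counts, whose median log2 fold change was 0.93. Per count of H2-DMa, the counts of H2-Oa were 0.210, 0.452 and 0.5 with vehicle and 1.33, 0.280 and 1.12 with AG636, so this ratio of inhibitor to editor chain also overlapped through AG636 mouse 2. Whether the change of H2-Oa differs from that of the members was not tested.

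Of the 10 factors that bind or act at class II promoters, all were tested, 1 was called higher and 0 lower, with a median log2 fold change of 0.16. The RFX subunits Rfx5 (0.27), Rfxap (0.05) and Rfxank (0.38) and the NF-Y subunits Nfya (0.04), Nfyb (-0.12) and Nfyc (-0.14) did not pass the test. Kat2b, a histone acetyltransferase that works with the coactivator, was at 33.3 ± 2.10 CPM with vehicle and 46.1 ± 4.70 CPM with AG636 (SD, n = 3 each). Its log2 fold change of 0.47 ± 0.15 had an adjusted p of 0.04996, just inside the threshold, and 11 of 13 alternative fits did not call it, among them DESeq2 (0.0634) and those without any 1 of the 6 mice (0.0764 to 0.128).

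Of 12 genes known to act on Ciita expression, 10 were tested, 0 were called higher and 1 lower, with a median log2 fold change of 0.28. The gene called was Ifngr1, the ligand-binding chain of the interferon-gamma receptor, at 145, 161 and 120 CPM with vehicle and at 93.7, 83.1 and 104 CPM with AG636. Its groups did not overlap, and it fell by 0.60 ± 0.15 on the log2 scale (adjusted p = 0.0193). The call was lost without vehicle mouse 2 (adjusted p = 0.0736) or AG636 mouse 1 (0.0606). Downstream of the receptor, the transcription factor gene Irf1 had a log2 fold change of 0.14 and did not pass. Socs1, a feedback inhibitor of this pathway, was at 3.39, 2.62 and 3.34 CPM with vehicle and at 2.12, 13.6 and 3.21 CPM with AG636, with an adjusted p of 0.251. Its highest mouse was AG636 mouse 2, as for the members, and AG636 mouse 1 was the lowest. Spi1, the myeloid factor PU.1, had a log2 fold change of 0.67 ± 0.24 (adjusted p = 0.0714), and DESeq2 (0.0320) and the fit with no filter (4.07e-04) called it higher.

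Endosomal processing genes were tested for 6 of 7, with 1 called higher, 0 lower and a median log2 fold change of 0.03. Ctss encodes cathepsin S, the protease that trims the invariant chain. It was at 7.13, 9.03 and 12.7 CPM with vehicle and at 13.0, 40.0 and 21.0 CPM with AG636. AG636 mouse 2 was again the highest, but here the other AG636 mice also lay above the vehicle range. Ctss rose with a log2 fold change of 1.36 ± 0.38 and an adjusted p of 0.0325. The call was lost without AG636 mouse 2 (log2 fold change 0.83, adjusted p = 0.0841), AG636 mouse 3 (0.0640), vehicle mouse 1 (0.0862) or vehicle mouse 2 (0.107). Ifi30, the lysosomal thiol reductase that opens disulfide bonds of antigens, was at 40.7 to 98.2 CPM with vehicle and at 35.2 ± 13.7 CPM (SD, n = 3) with AG636. Its groups overlapped and its adjusted p was 0.105, but DESeq2 called it lower (0.0395), as did the fits without vehicle mouse 3 (0.0483) and with no filter (2.94e-05). March8, a ubiquitin ligase that removes class II molecules from the surface, had a log2 fold change of -0.61 ± 0.20 and an adjusted p of 0.0554, with a call by DESeq2 (0.0416), without vehicle mouse 3 (0.0418) and with no filter (0.0203). March1 was too low to test.

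Cd74 at the surface also binds the cytokine Mif, with Cd44, Cxcr4 and Cxcr2 as partners, and all 4 of these genes passed the test, in both directions. Mif fell by 0.90 ± 0.17 on the log2 scale, from 999 ± 48.4 to 537 ± 136 CPM (adjusted p = 0.00824). Cd44 fell by 0.59 ± 0.13 (adjusted p = 0.0138), a call lost without AG636 mouse 3 (0.0504). Cxcr2 rose by 1.12 ± 0.17 (adjusted p = 0.00408). Cxcr4 rose by 0.78 ± 0.20 (adjusted p = 0.0242), a call lost without vehicle mouse 1 (0.0687), vehicle mouse 2 (0.0614), AG636 mouse 1 (0.0778) or AG636 mouse 3 (0.0931). The ligand and 1 partner thus had lower transcript levels and the chemokine receptors higher ones, while Cd74 did not pass the test. Of 6 costimulatory and inhibitory ligands that act beside class II, 4 were tested and 0 were called, with a median log2 fold change of 0.55, and Cd80 and Cd40 were too low.

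**Figure D4:**
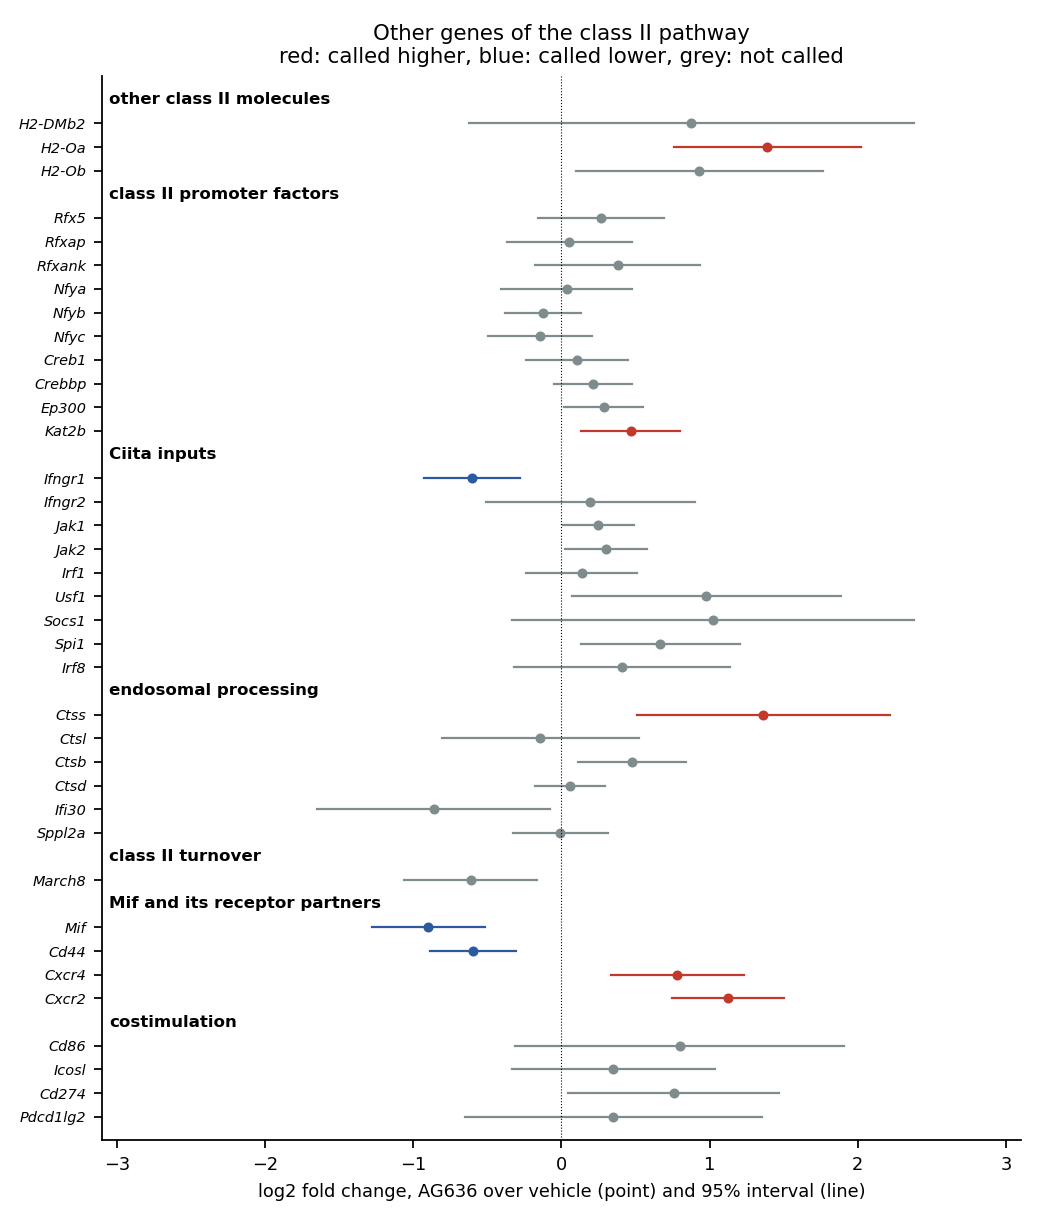
Log2 fold change, AG636 over vehicle, with its 95% interval for tested genes of the class II pathway lists other than the members, with red for called higher, blue for called lower and grey for not called. H2-Oa at 1.39 and Ctss at 1.36 are the highest red points of the antigen presentation lists, and Mif at -0.90 is the lowest blue point.

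Markers of other cells that use class II were measured in the same mice. Of 10 B cell markers, 3 were tested and 0 were called, and their summed level was 17.5 to 33.1 CPM with vehicle and 32.9 to 48.9 CPM with AG636, highest in AG636 mouse 2. Ighm, the IgM heavy chain, was at 29.7 CPM there and at 7.84 to 14.0 CPM elsewhere. The other 9 genes of the list together were at 9.63 to 19.2 CPM with vehicle and 19.2 to 23.2 CPM with AG636, highest in AG636 mouse 1. This remainder was mostly Cd79b, at 5.35, 12.2 and 14.0 CPM in vehicle mice 1 to 3. In AG636 mice 1 to 3 Cd79b was at 19.1, 13.2 and 14.0 CPM, and it was not called. Ms4a1 and Pax5 had 2 and 3 counts over all 6 mice. Sums without the largest gene of a list, here and below, were a split chosen after the values were seen. Of 9 dendritic cell markers, 3 were tested, 0 were called higher and Zbtb46 fell by 1.99 ± 0.44 (adjusted p = 0.0142), a call lost without AG636 mouse 3 (0.0545). Their summed level was 19.4 to 39.8 CPM with vehicle and 12.8 to 21.0 CPM with AG636. Zbtb46 made up 62.1% of the list's sum over the 6 mice. The other 8 genes together, a split chosen after the values were seen, were at 4.99 to 8.99 CPM with vehicle and 6.80 to 13.6 CPM with AG636, highest in AG636 mouse 2, where Clec10a was at 7.84 CPM against 1.60 to 4.81 CPM elsewhere.

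Of 11 macrophage and monocyte markers, 8 were tested and 2 were called higher, C1qb (log2 fold change 1.9 ± 0.48, adjusted p = 0.0229) and Ly6c2 (1.13 ± 0.34, adjusted p = 0.0408). Neither was called by limma-voom, C1qb was not called without vehicle mouse 2, AG636 mouse 2 or AG636 mouse 3 (adjusted p up to 0.0944), and Ly6c2 was not called without any 1 mouse other than AG636 mouse 2 (up to 0.151). The summed level of this list was 53.5 to 76.4 CPM with vehicle and 111 to 150 CPM with AG636. Ly6c2 made up 50.9% of it over the 6 mice, at 110, 40.2 and 63.0 CPM in AG636 mice 1 to 3. The other 10 genes together were at 32.4 to 39.2 CPM with vehicle and at 40.6, 70.7 and 79.1 CPM in AG636 mice 1 to 3. In AG636 mouse 2, 5 of the 11 markers were at their highest. These were the complement genes C1qa, C1qb and C1qc, and Fcgr1 and Marco, which were too low to test. Of all genes tested, 18.3% were highest in that mouse. There C1qa, C1qb and C1qc were at 10.7, 15.1 and 13.2 CPM. They were at 7.36, 14.2 and 5.29 CPM in AG636 mouse 3 and at 2.55, 3.82 and 2.55 CPM in AG636 mouse 1. Of 8 T and NK cell markers 1 was tested and 0 were called, with summed levels of 195 to 332 CPM and 261 to 494 CPM, nearly all of it Nkg7. The other 7 genes, all too low to test, were together at 3.34 to 5.49 CPM with vehicle. In AG636 mice 1 to 3 their sum was 1.70, 7.84 and 5.66 CPM, so it was highest in AG636 mouse 2 and lowest in AG636 mouse 1. Of 8 neutrophil markers 7 were called higher, with the lowest adjusted p for Ngp (log2 fold change 1.67 ± 0.22), Cxcr2, Ltf and Camp, and the sum was 1039 to 2377 CPM with vehicle and 2899 to 5925 CPM with AG636, highest in AG636 mouse 1. Of 6 erythroid markers, 2 were called lower, among them Klf1, whose call was lost without AG636 mouse 1 or AG636 mouse 3 (adjusted p up to 0.0868), with sums of 1638 to 4648 CPM and 1937 to 3213 CPM. Of 8 markers of immature AML cells, 7 were tested and 2 called higher, Meis1 and Gata2. The summed level of these 8 markers was 2201 to 4119 CPM with vehicle and 1960 to 3969 CPM with AG636, lowest of the 6 mice in AG636 mouse 2. In that mouse Mpo, the myeloperoxidase of granulocyte precursors, was at 618 CPM against 1252 to 2772 CPM elsewhere. Mpo made up 56.0% of this sum over the 6 mice. Without Mpo, the other 7 genes were at 949 to 1348 CPM with vehicle and at 1947, 1342 and 1943 CPM in AG636 mice 1 to 3. That sum was lowest in vehicle mouse 1. The part of other cell types in the levels of the members was not tested.

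**Figure D5:**
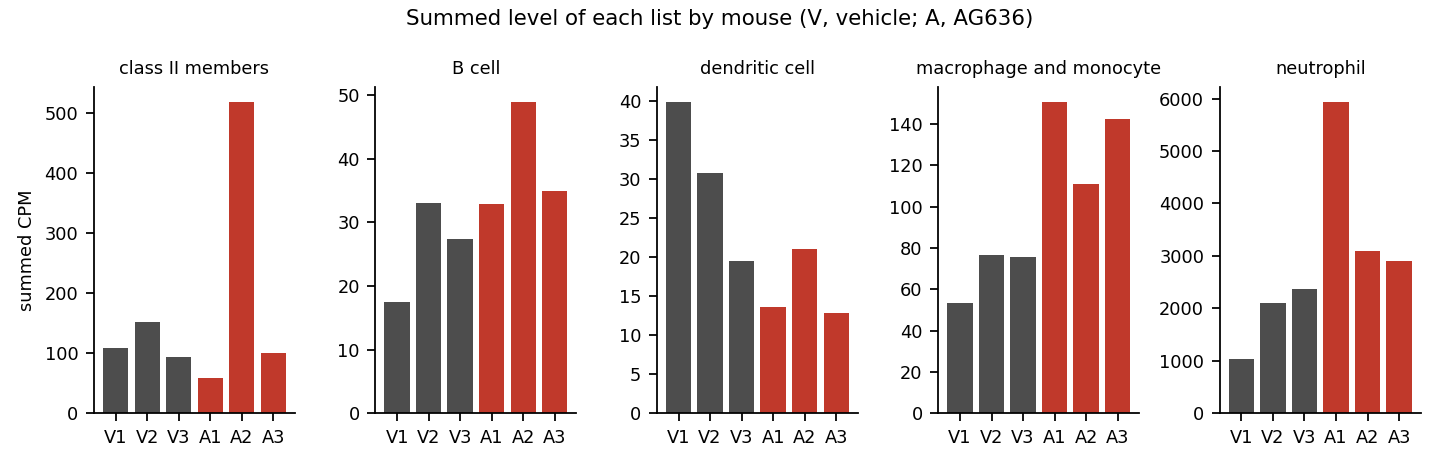
Summed CPM per mouse of the 7 class II members and of the B cell, dendritic cell, macrophage and monocyte, and neutrophil marker lists, with 1 bar per mouse starting at 0. The members peak at 518 CPM in AG636 mouse 2, the B cell list, with Ighm, peaks there at 48.9 CPM, and the dendritic cell and macrophage and monocyte sums are set largely by Zbtb46 and Ly6c2.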

How the data were processed

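Gene expression was measured by QuantSeq 3′ RNA-seq in sorted I1DN cells of 3 vehicle-treated and 3 AG636-treated mice, grouped by the submitters' labels. The authors deposited read counts per gene, with gene coordinates and the exon length in bases as the 1 other measure, which was not used in any test. Per the study's methods, trimming used cutadapt, alignment to mm10 used HISAT2 and reads per gene were then counted with Subread. The submitters' processing notes give cutadapt 1.9.1, HISAT2 2.0.4 and Subread 1.5.0-p3, and the methods give other versions of cutadapt and Subread. The use of strand and the annotation release are not given in the sources used here. GENCODE M21 gave a symbol to 54723 identifiers. There were 0 unused columns of per-sample values.

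The test was run in edgeR 4.0.16 under R 4.3.3, with filterByExpr (minimum count 10, minimum total 15), TMM scaling and the quasi-likelihood test, with Benjamini-Hochberg adjustment over 11092 genes and a call at an adjusted p under 0.05. CPM use the scaled library sizes. The SE is the log2 fold change divided by the square root of F, and the 95% interval uses the t distribution with the degrees of freedom of the fit. Centred log2 CPM used a prior count of 2. Single genes were also compared by exact permutation tests. Totals ranged from 4634963 to 7906589 counts, and the floor of 3 counts covers counting error only. Replicate pairs differed by more than sampling noise (chi-square per degree of freedom 6.67 to 15.6), and p-values measure the spread between these mice. The edgeR, limma-voom and DESeq2 tests, at the main filter and scaling, were run on simulated data first. The permutation test and the other alternative fits were not.

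The members, gene lists and tests were chosen with earlier results of these data known. Genes named are the members, the called genes of each list (at most 4 per list), list genes whose role is described, and the 5 genes nearest to the member with the most counts. Values of 3 listed genes are not reported here. Alternatives were DESeq2 1.42.0, limma-voom (limma 3.58.1), median-of-ratios size factors, library size alone, a replicate block, no filter, a filter of at least 10 counts in each mouse, each mouse left out, and an adjusted p under 0.01.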

Additional observations from a re-analysis of the deposited data

How the results depend on the processing

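The members' calls and signs depended on 1 mouse and on the filter. Over the fits without 1 mouse, their median log2 fold change ranged from -0.59 to 1.40 and 0 were called in either direction, with H2-Aa at -0.58 to 1.61, H2-Ab1 at -0.60 to 1.61, H2-Eb1 at -0.82 to 1.57, Cd74 at -0.73 to 1.05 and H2-DMa at -0.17 to 0.82, each negative only without AG636 mouse 2, and H2-DMb1 at 0.08 to 1.46. DESeq2, limma-voom, both other scalings, the stricter filter and the block gave 6 positive members each, 5 for the stricter filter, which dropped H2-DMb1, and called 0, with medians between 0.36 (limma-voom) and 1.16 (library size alone). With no filter, 5 members were called higher in place of 0, the other pathway lists had 8 genes called higher and 5 lower in place of 5 and 3, and 6 markers were called lower in place of 3. In that fit edgeR used the trended spread alone. DESeq2 called 5 pathway genes lower. Without 1 mouse, the pathway lists had 2 to 5 genes called higher and 2 to 5 lower, the marker lists 6 to 12 and 0 to 5, and all genes 399 to 1074 and 452 to 1298, fewest without AG636 mouse 3. At an adjusted p under 0.01, 231 genes were higher and 325 lower. Library size alone gave 1483 higher and 913 lower in place of 1146 and 1222.

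The replicate numbers mark different mice, and same-numbered mice did not deviate together (correlations -0.06, -0.18 and 0.22), so the numbers do not pair the samples. With the replicate block the members' median was 0.48, 0 were called and 914 genes were higher and 1046 lower. The block also ended the calls of Kat2b, C1qb and Ly6c2 and called Ifi30 lower (adjusted p = 0.0429). With 3 mice a group and a within-group SD of over 1 on the log2 scale for 5 members, the 95% intervals of all 6 tested members span fold changes in both directions. Ciita and 2 of 5 further class II genes had too few counts for a test.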

Other observations

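Beyond the nearest 5 genes, those that followed H2-Aa most closely over the 6 mice were Gbp9, Igkc, Ccdc68, Socs1 and Lpl at ranks 6 to 10, with Gbp2 at rank 12, C1qc at rank 17, C1qa at rank 19 and Ccl5 at rank 20. These were singled out after their values were seen. Gbp9 and Gbp2 encode guanylate-binding proteins, which interferons are known to induce, Igkc encodes the kappa light chain constant region, and Lpl encodes lipoprotein lipase. In AG636 mouse 2 the centred log2 CPM was 1.91 for Gbp9, 1.26 for Igkc, 1.75 for Socs1, 1.65 for Lpl and 1.52 for Ccl5. In AG636 mouse 1 the values were -0.84 for Gbp9, -1.12 for Igkc, -0.74 for Socs1, -1.22 for Lpl and -1.19 for Ccl5. These signs follow from choosing the genes by their likeness to H2-Aa.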
